A study of Rattus norvegicus with 12 samples.

Results

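The brain's transcriptional response to middle cerebral artery occlusion (MCAO, which cuts the blood supply of much of one hemisphere) was set against its response to pontine infarction (a stroke in the pons, a part of the brainstem that links the cerebral peduncles, the cerebellum and the medulla). For each gene the difference is the log2 change from sham LN to MCAO minus the log2 change from sham PN to pontine infarction, so that a value above 0 means a more positive log2 change after MCAO. The contrast uses all 12 of the 12 libraries, and 17008 of the 37209 symbols in the table passed the filter on low counts. The rats were Sprague Dawley animals at postnatal day 21, and total RNA of the brain was sequenced. Each of the 4 groups (MCAO, sham LN, pontine infarction and sham PN) had 3 libraries. The shams carry one common label, and LN was taken as the control of MCAO and PN as that of pontine infarction from the first letter of the codes. The labels are silent on the piece of brain taken and on the interval between stroke and sampling, and they mention 3 rats for each stroke. Nothing in them says which libraries came from separate animals, so that the p-values measure the spread between these samples, which may be technical. MCAO values are given in the order replicate 1, replicate 2 and a library whose column number is in no sample title (the unnumbered MCAO library), and those of the other groups in the order of replicates 1 to 3.

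After a blocked artery, neurons and glia in the core of the infarct lose oxygen and glucose and die, and the tissue around it passes through a shared sequence of reactions. Immediate early and stress genes are switched on, vessels and microglia release cytokines that draw in neutrophils and monocytes, astrocytes become reactive and form a border, and microglia, vessel cells and glial precursors divide. The cerebral hemisphere is rich in neuron cell bodies, whereas the pons holds long myelinated fibre tracts among its nuclei, so that the same gene can start from different levels in the tissues that each stroke reaches.

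The shams showed how different these starting levels were. A list of 16 genes of the telencephalon, the part of the brain that forms the hemispheres, summed to 586 to 741 CPM (read counts scaled to library size with TMM factors) in the sham LN libraries and to 54.7 to 67.2 CPM in the sham PN libraries. A list of 19 hindbrain and Hox genes had the reverse order, with 12.2 to 16.1 CPM in sham LN and 261 to 304 CPM in sham PN. The type of stroke and the region sampled thus changed together in every value given here and cannot be told apart. Libraries held 19805815 to 40400676 counts. MCAO replicate 2 and pontine infarction replicate 3 stood apart from the others of their groups, with the lowest quality weights in limma's voom model, 0.272 and 0.274 against 0.561 to 4.34 in the other 10 libraries. In bulk tissue, fewer cells of a type and less RNA per cell cannot be told apart.

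No gene passed the test of the difference itself. With edgeR's quasi-likelihood test, 0 of 17008 genes (0%) had an adjusted p under 0.05, and the smallest adjusted p was 0.100. At an unadjusted p under 0.05 there were 1826 genes (10.7%), of which 1238 (7.28%) had a difference above 0 and 588 (3.46%) one below 0. The same contrast called 0 genes with limma voom, where 1563 had an unadjusted p under 0.05, 238 genes (154 higher and 84 lower) with DESeq2, and 259 (198 higher and 61 lower) with limma voom and sample quality weights. Without MCAO replicate 2 edgeR called 970 genes, of which 367 were higher and 603 lower, so that the count rested on this library. The balance of directions also rested on single libraries: genes above 0 were 67.8% of those at an unadjusted p under 0.05, but 34.3% without MCAO replicate 1, 35.8% without MCAO replicate 2 and 55.9% with DESeq2 size factors. The median difference over all genes tested was 0.08, and it was 0.00 with DESeq2 size factors, -0.11 without MCAO replicate 1 and -0.13 without MCAO replicate 2.

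**Figure D1:**
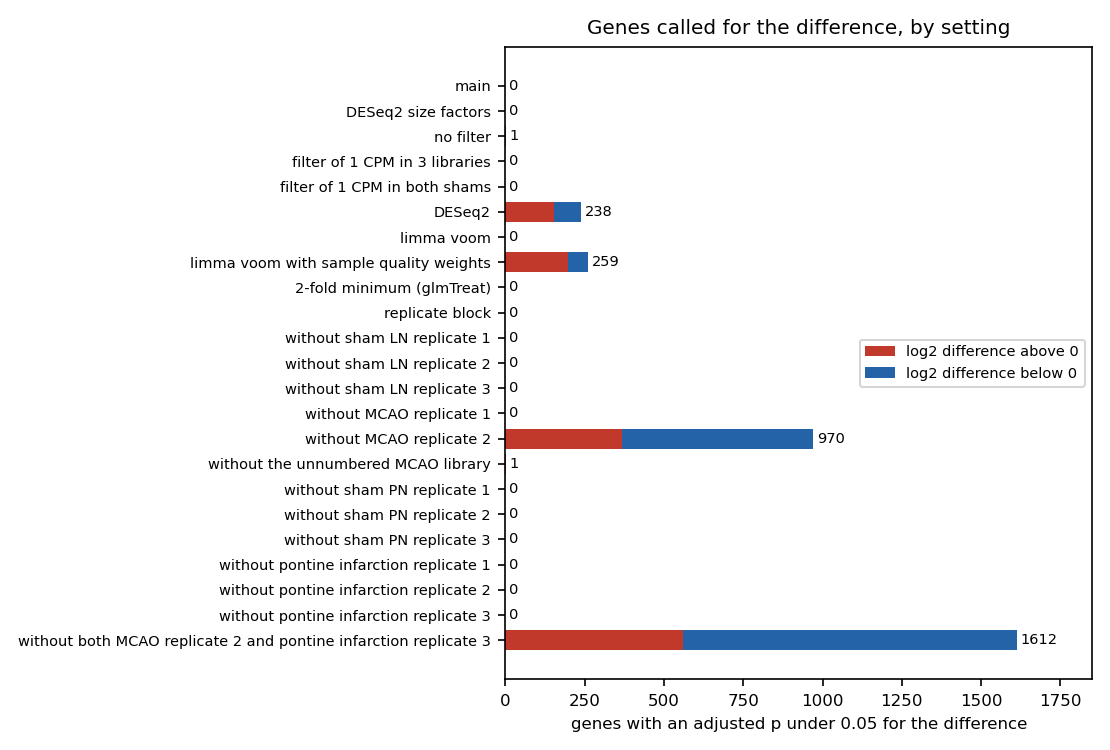
Number of genes with an adjusted p under 0.05 for the difference in each setting tried, as bars that stack genes with a difference above 0 (red) and below 0 (blue). Bars are 0 or 1 in most settings and reach 238 with DESeq2, 259 with sample quality weights, 970 without MCAO replicate 2 and 1612 without that library and pontine infarction replicate 3.

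The precision of the difference was lower than that of either response. Its median SE was 0.37 on the log2 scale, compared with 0.27 for the MCAO response and 0.26 for the pontine response. For 6831 genes (40.2%) the 95% interval of the difference lay within a 2-fold change in either direction, and among the 13545 genes with at least 1 CPM in both sham groups this held for 6818 (50.3%). For the other genes the interval reached past 2-fold in at least one direction, so that a missed threshold there does not show equal responses.

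Side by side, most genes had log2 changes of the same sign in both responses. The MCAO response, tested against sham LN, called 3163 genes (18.6%), 2131 higher and 1032 lower. The pontine response, tested against sham PN, called 694 genes (4.08%), 546 higher and 148 lower. Of the genes called in at least one response, 390 rose in both and 55 fell in both, 2716 were called after MCAO alone and 247 after pontine infarction alone. The 447 genes called in both were 14.1% of those called after MCAO and 64.4% of those called after pontine infarction. Single libraries moved these counts. With 1 library left out, the MCAO response called 1136, 1544 and 1257 genes without sham LN replicates 1 to 3, and 1426, 6170 and 1517 without MCAO replicates 1, 2 and the unnumbered one. The pontine response called 182, 52 and 6 without sham PN replicates 1 to 3, 431 and 310 without pontine infarction replicates 1 and 3, 441 and 455 without sham LN replicates 1 and 3, and 1416 without MCAO replicate 2. With the replicate number as a block, on the 11 numbered libraries, the counts were 126 after MCAO and 101 after pontine infarction, so that the gap was not kept in that fit. It leaves out the unnumbered MCAO library, so that MCAO has fewer pairs of stroke and sham than pontine infarction and the designs are unequal. Without a block the same 11 libraries called 1517 genes after MCAO and 602 after pontine infarction. Since 0 genes passed the test of the difference, being called in one response alone does not show that the responses differ. The sign of the log2 change was the same in both for 72.2% of all genes, for 91.1% of the genes called after MCAO and for 97.1% of those called after pontine infarction. Across the 17008 genes, which are not independent replicates, the log2 changes had a Pearson r of 0.72 and a Spearman rho of 0.58. The strokes do not share control libraries, and the values of a gene share the count table and its scaling.

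**Figure D2:**
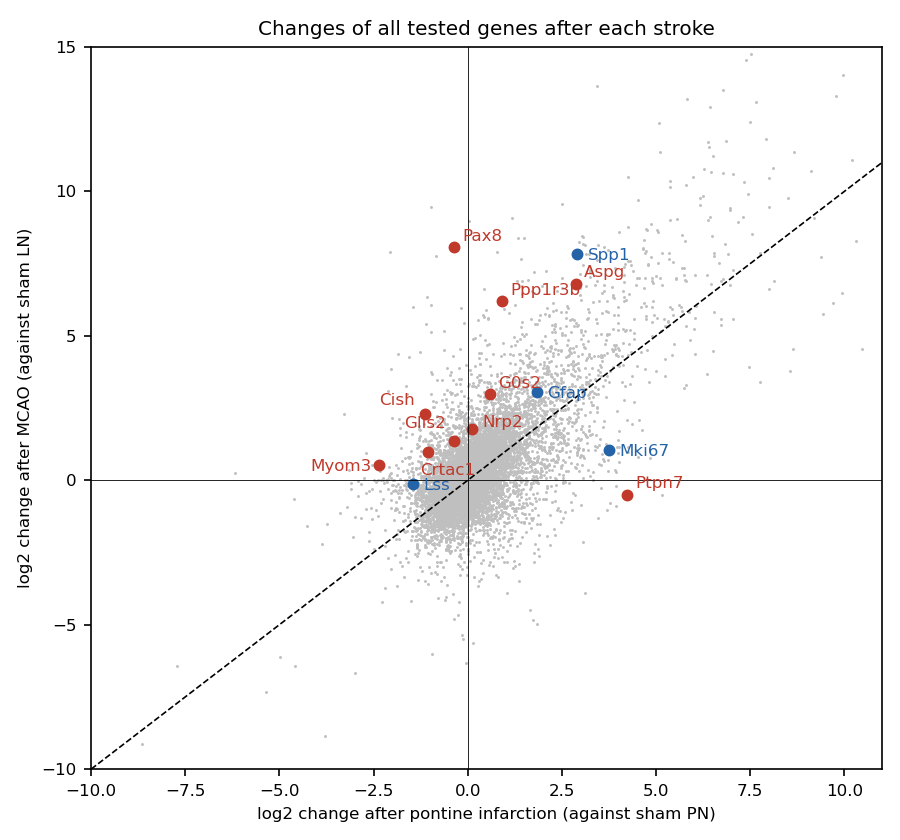
Each grey point is 1 of the 17008 genes tested, with its log2 change after pontine infarction on the horizontal axis and after MCAO on the vertical axis, and the dashed line marks equal changes. The 10 genes of smallest p for the difference are in red (Ptpn7 lies below the line and the others above it) and 4 genes of the text are in blue, Spp1, Gfap and Lss above the line and Mki67 below it.

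Only 2 genes were called in both responses with opposite signs, Crtac1 and Vash2, both higher after MCAO and lower after pontine infarction. Both were singled out after their values were seen. Crtac1 encodes a secreted protein also known as LOTUS, an antagonist of the Nogo receptor, which restrains axon growth. Its level was 95.9, 96.6 and 75.4 CPM in sham LN and 131, 153 and 248 CPM after MCAO. In sham PN it was 69.2, 82.6 and 94.9 CPM, and after pontine infarction 35.4, 46.6 and 36.8 CPM. Each stroke group lay clear of its own sham, on opposite sides, and the unnumbered MCAO library was the highest. The log2 change was 0.99 ± 0.23 after MCAO (edgeR adjusted p = 0.0149) and -1.05 ± 0.23 after pontine infarction (edgeR adjusted p = 0.0292), and the difference of 2.04 ± 0.33 (95% interval 1.33 to 2.75) had an edgeR adjusted p of 0.116. Vash2, which encodes a vasohibin that trims the terminal tyrosine from tubulin, went from 3.73 ± 0.283 CPM (SD, n = 3) to 6.31 ± 0.379 CPM with MCAO and from 18.6 ± 0.601 CPM to 9.33 ± 3.04 CPM with pontine infarction. Its difference was 1.75 ± 0.33 (95% interval 1.02 to 2.47, edgeR adjusted p = 0.198).

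The 10 genes of smallest p for the difference, clone and locus names left out, were Aspg, Ptpn7, Myom3, Pax8, Glis2, Ppp1r3b, Crtac1, Cish, Nrp2 and G0s2. None passed the threshold in edgeR with all 12 libraries, with adjusted p from 0.100 to 0.135. Each of the 10 had an adjusted p under 0.05 in DESeq2, in limma voom with sample quality weights and in edgeR without MCAO replicate 2. A set of 124 genes, these 10 among them, was called in all 3 of those fits. The fits called 238, 259 and 970 genes and used the same counts from which the 10 were chosen. Passing in them is therefore no separate support for the 10 or for the 124. In 9 of the 10 the log2 difference was above 0, and Ptpn7 was the exception.

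In 4 of the 10, G0s2, Ppp1r3b, Aspg and Nrp2, the level rose after MCAO and the log2 change after pontine infarction was smaller and above 0. G0s2 encodes an inhibitor of adipose triglyceride lipase, the enzyme that opens lipid droplets. It was at 6.30, 6.41 and 6.39 CPM in sham LN and at 48.5, 72.7 and 28.8 CPM after MCAO, and at 3.95, 3.21 and 3.70 CPM in sham PN and 6.0005, 4.40 and 6.06 CPM after pontine infarction. The shams were low in both models, the 3 MCAO libraries were all far above them, and the pontine libraries lay just above their shams. The difference was 2.38 ± 0.40 (95% interval 1.502 to 3.26, edgeR adjusted p = 0.135), made of 2.97 after MCAO and 0.59 after pontine infarction. Without the unnumbered MCAO library G0s2 was the single gene that passed, with a difference of 2.66 and an edgeR adjusted p of 0.0464. Ppp1r3b, a subunit that directs protein phosphatase 1 to glycogen, was at 0.474, 0.185 and 0.268 CPM in sham LN and 42.4, 8.39 and 20.1 CPM after MCAO. In the pontine model it was at 3.44, 1.96 and 2.87 CPM in sham and 7.72, 4.33 and 3.44 CPM after infarction. The MCAO libraries were far above their shams, replicate 1 most, and pontine infarction replicate 3 was level with the highest sham PN library (difference 5.29 ± 0.82, 95% interval 3.51 to 7.08, edgeR adjusted p = 0.100).

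Aspg, an asparaginase counted among the transcripts of reactive astrocytes, rose in both models. It was at 0.0527, 0.0741 and 0.153 CPM in sham LN and 10.97, 8.93 and 11.7 CPM after MCAO, and at 0.903, 0.491 and 1.15 CPM in sham PN and 6.98, 4.98 and 6.73 CPM after pontine infarction. No stroke library overlapped its shams. The log2 changes of 6.81 ± 0.46 (edgeR adjusted p = 5.37e-05) and 2.87 ± 0.36 (edgeR adjusted p = 0.00508) gave a difference of 3.94 ± 0.56, while the shams differed too, since the 3 sham LN libraries together held 8 counts and the 3 sham PN libraries 66. Nrp2 encodes neuropilin 2, a receptor for class 3 semaphorins and for vascular endothelial growth factors. It rose after MCAO from 9.72, 15.5 and 12.5 CPM to 38.5, 42.8 and 48.4 CPM, and had 45.2, 50.6 and 40.6 CPM in sham PN and 55.2, 54.0 and 38.8 CPM after pontine infarction. The MCAO libraries thus came close to the range of both pontine groups, and the difference was 1.66 ± 0.28 (95% interval 1.05 to 2.27, edgeR adjusted p = 0.135).

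Cish and Glis2 rose after MCAO and had log2 changes below 0 after pontine infarction. Cish encodes a feedback inhibitor of cytokine receptors of the SOCS family, and the STAT5 factor that it restrains binds DNA at pairs of TTC and GAA. The 250 bases before its start in RefSeq's rat annotation (GRCr8, chr8:116850719-116850968, plus strand) hold 4 matches to TTCNNNGAA, in capitals, beginning 241, 230, 136 and 119 bases before the start. This motif reads the same on both strands, and 7.67% of all 33469 rat promoter windows of this length hold it. The window is shown because Cish is the gene among the 10 that acts in cytokine signalling, and no binding was measured here.
Cish promoter: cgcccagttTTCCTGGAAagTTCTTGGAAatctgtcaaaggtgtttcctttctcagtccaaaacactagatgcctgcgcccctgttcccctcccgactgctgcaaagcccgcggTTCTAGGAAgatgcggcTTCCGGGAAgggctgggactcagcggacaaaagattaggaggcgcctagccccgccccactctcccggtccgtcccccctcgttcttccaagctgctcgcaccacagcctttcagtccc
Cish was at 7.48, 4.19 and 4.44 CPM in sham LN and 35.1, 12.4 and 32.2 CPM after MCAO, and at 8.04, 11.4 and 17.6 CPM in sham PN and 4.79, 6.57 and 5.49 CPM after pontine infarction. MCAO lay above its shams in all 3 libraries and pontine infarction below its shams in all 3. The change after MCAO passed (log2 change 2.30 ± 0.41, edgeR adjusted p = 0.00528), the pontine change of -1.13 ± 0.40 did not (edgeR adjusted p = 0.132), and the difference was 3.43 ± 0.57 (95% interval 2.18 to 4.69, edgeR adjusted p = 0.135). Glis2, a zinc finger transcription factor, was at 20.8, 18.9 and 18.5 CPM in sham LN and 48.4, 36.1 and 65.4 CPM after MCAO. It was at 30.5, 29.8 and 33.3 CPM in sham PN and 24.6, 25.2 and 23.3 CPM after pontine infarction, so that each model's groups were apart, in opposite directions. The difference was 1.72 ± 0.26 (95% interval 1.14 to 2.30, edgeR adjusted p = 0.100).

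For Ptpn7, Myom3 and Pax8 the difference went with shams that were far apart. The same held for 3 genes described above. Mean levels in sham LN and sham PN were 0.309 and 2.76 CPM for Ppp1r3b, 0.0933 and 0.848 CPM for Aspg, and 12.6 and 45.4 CPM for Nrp2. Ptpn7, a tyrosine phosphatase of blood cells, was at 0.516, 0.416 and 0.647 CPM in sham PN and 6.47, 6.34 and 17.1 CPM after pontine infarction. In sham LN it was already at 17.1, 7.23 and 13.2 CPM, and after MCAO at 9.43, 11.7 and 5.37 CPM. The pontine groups were apart and the MCAO groups overlapped, and all groups but sham PN lay between 5.37 and 17.1 CPM (difference -4.73 ± 0.68, 95% interval -6.22 to -3.23, edgeR adjusted p = 0.100). With no filter on low counts Ptpn7 was the single gene called, at an edgeR adjusted p of 0.0421. Myom3, known as a protein of the sarcomere of muscle, fell after pontine infarction from 15.2, 23.5 and 17.5 CPM to 3.91, 2.32 and 4.86 CPM (log2 change -2.35 ± 0.30, edgeR adjusted p = 0.00508), while it was at 0.738, 0.852 and 0.650 CPM in sham LN and 0.914, 1.23 and 1.11 CPM after MCAO. Its difference of 2.89 ± 0.43 therefore compares a fall from about 18.8 CPM with values near 1 CPM. Pax8, a transcription factor of the thyroid, kidney and developing hindbrain, had 0 counts in all 3 sham LN libraries and 2.17, 0.444 and 1.16 CPM after MCAO, 78 counts in all. In sham PN it was at 2.88, 2.91 and 4.46 CPM and after pontine infarction at 2.74, 2.43 and 2.84 CPM, so that no MCAO library reached the lowest library of either pontine group. Its fitted difference of 8.43 depends on the prior count, because a group is at 0.

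**Figure D3:**
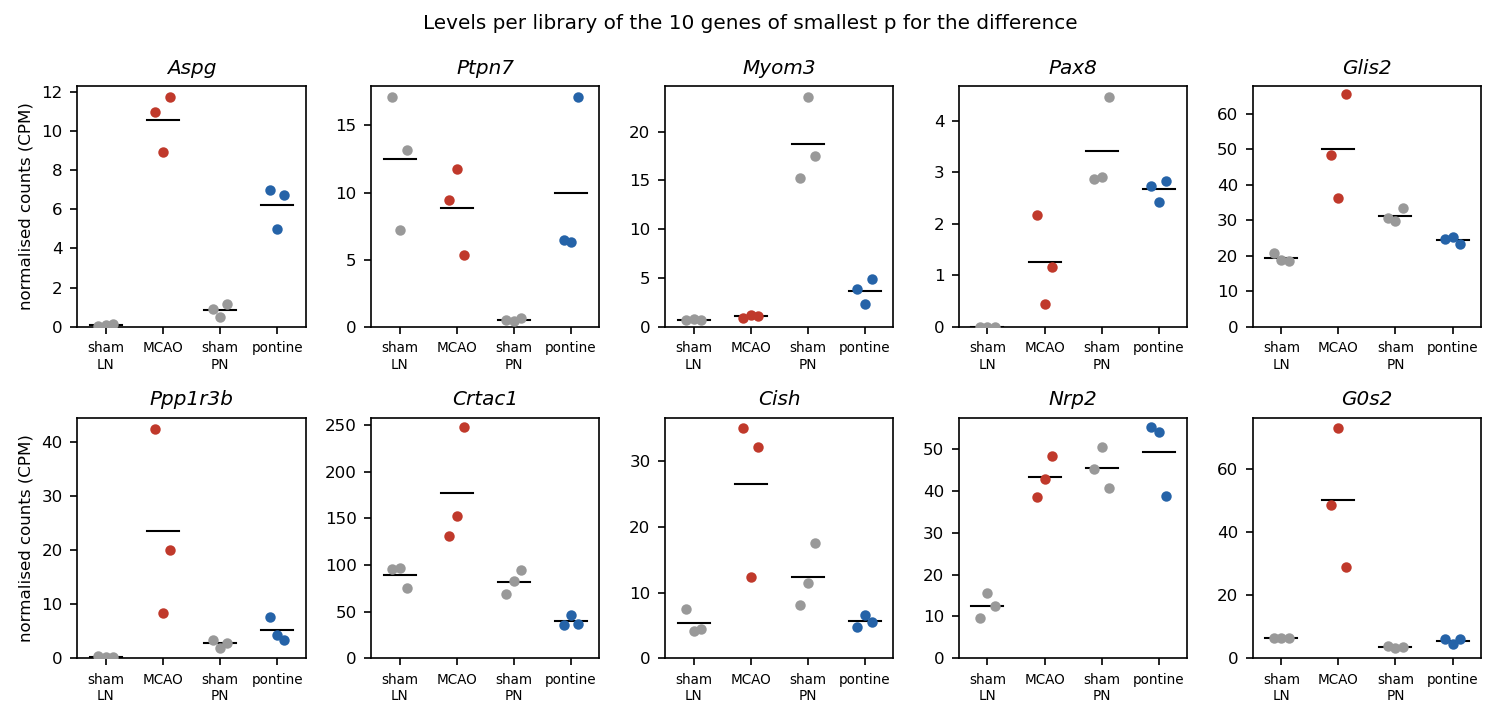
Normalised counts (CPM, linear axes from 0) of the 10 genes of smallest p in each of the 12 libraries, as points by group, with a bar at the mean of 3 libraries. G0s2 and Ppp1r3b are high in the MCAO libraries, and Crtac1, Glis2 and Cish move in opposite directions in the models. The sham groups are far apart in level for Ptpn7, Myom3, Pax8, Nrp2, Aspg and Ppp1r3b.

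Inflammatory signals had higher log2 changes after MCAO as a group, without a member that passed for the difference. Of 26 cytokine and chemokine genes tested, 24 rose after MCAO, beside 12.5% of all genes, and 7 rose after pontine infarction, beside 3.21% of all genes. The list's median log2 change was 8.28 after MCAO and 4.91 after pontine infarction, and its median difference was 3.14, compared with 0.08 over all genes, and 3.02 with the 4 genes that have a group at 0 set to a floor of 3 counts over that group. The difference was above 0 in 25 of the 26, and 5 (Osm, Csf1, Il1rn, Il1a and Cxcl3) had an unadjusted p under 0.05, all with higher changes after MCAO (7.28% of all genes were). By library the median change was 7.70, 3.88 and 7.42 after MCAO and 5.54, 1.63 and 2.66 after pontine infarction. MCAO replicate 2 lay below pontine infarction replicate 1, so that the models overlapped. Without pontine infarction replicate 1 the median difference was 5.42.

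Osm, oncostatin M, is a cytokine of myeloid cells that acts on astrocytes and vessels. It was at 0.211, 0.296 and 0.191 CPM in sham LN and 30.1, 7.01 and 8.95 CPM after MCAO, and at 0.129, 0.567 and 0.359 CPM in sham PN and 2.51, 1.08 and 3.21 CPM after pontine infarction. Every MCAO library was above every pontine library (difference 3.38 ± 0.96, 95% interval 1.27 to 5.49, edgeR adjusted p = 0.280). Il1b, the interleukin 1β gene, was at 372, 67.5 and 124 CPM after MCAO and 88.1, 2.20 and 0.972 CPM after pontine infarction, and at most 0.731 CPM in any sham. One pontine library thus stood within the MCAO range and the others were just above the shams, and the interval of the difference was wide (4.21 ± 2.85, 95% interval -2.03 to 10.45). Ccl2, which attracts monocytes, had 377, 16.8 and 224 CPM after MCAO and 74.1, 7.34 and 13.2 CPM after pontine infarction (difference 4.93 ± 3.09, 95% interval -1.83 to 11.69). Ccl2 rose in both models, with edgeR adjusted p of 0.00244 and 0.0212. Il1rn, which encodes the natural antagonist of the interleukin 1 receptor, also rose in both and had 779, 92.2 and 237 CPM after MCAO against 71.2, 7.98 and 10.47 CPM after pontine infarction (difference 3.88 ± 1.49, edgeR adjusted p = 0.402).

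The cells that such signals attract gave smaller or mixed differences. Over all genes, 12.5% rose after MCAO and 3.21% after pontine infarction. All 15 neutrophil and monocyte markers tested rose after MCAO and 11 rose after pontine infarction. Their median difference was 1.52 (1.85 with 2 genes at that floor) with 0 members at an unadjusted p under 0.05, beside 10.7% of all genes. Csf3r, the receptor for granulocyte colony-stimulating factor, was at 194, 36.4 and 140.4 CPM after MCAO and 77.1, 17.8 and 44.4 CPM after pontine infarction, with shams from 3.21 to 4.46 CPM. The ranges overlapped, and the difference was 1.52 ± 0.80 (95% interval -0.23 to 3.26). Without MCAO replicate 1 it was 0.85, and the list's median was 0.48, while the median was 2.90 without pontine infarction replicate 1. Of 24 phagocyte activation genes, 18 rose after MCAO and 15 after pontine infarction, with a median difference of 0.45, from -0.23 to 1.23 over 22 settings and below 0 in 2 of them, without MCAO replicate 1 the lowest. Cd68, a lysosomal protein of phagocytes, rose in both, with 118, 6.42 and 35.5 CPM after MCAO and 40.5, 22.2 and 124 CPM after pontine infarction against shams of 0.918 to 2.06 CPM. Its difference of 0.21 ± 1.22 (95% interval -2.46 to 2.88) changed sign between settings, and the lowest MCAO library was again replicate 2.

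Spp1 encodes osteopontin, a secreted protein of activated phagocytes and of large brainstem neurons, and its difference depended on the scale. It was at 0.790, 0.889 and 0.459 CPM in sham LN and 77.3, 104 and 314 CPM after MCAO. In sham PN it was at 132, 106 and 125 CPM, and after pontine infarction at 861, 278 and 1591 CPM. Spp1 rose in both models, with edgeR adjusted p of 0.000821 and 0.0251. On the log2 scale the difference was 4.92 ± 0.92 (95% interval 2.91 to 6.94, edgeR adjusted p = 0.198), above 0, with every sham LN library below 1 CPM. As a gain in CPM the order was reversed, with a mean gain of 164 CPM after MCAO and 789 CPM after pontine infarction. Over all genes tested, the sign of the difference was opposite on the CPM scale for 1701, and among the 1826 genes at an unadjusted p under 0.05 for 35 (1.92%).

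Most markers of resting microglia had differences below 0. The difference was below 0 in 11 of 12 markers of resting microglia, with a median of -1.08 and 4 members (Sall1, Csf1r, Cx3cr1 and Tmem119) at an unadjusted p under 0.05 and below 0, beside 3.46% of all genes. Csf1r, the receptor on which microglia depend for survival, was at 137, 149 and 116 CPM in sham LN and 185, 170.3 and 118 CPM after MCAO, and at 109, 132 and 142 CPM in sham PN and 183, 269 and 586 CPM after pontine infarction. It rose after pontine infarction (log2 change 1.44 ± 0.35, edgeR adjusted p = 0.0425), most in replicate 3, and the MCAO libraries overlapped their shams (difference -1.20 ± 0.48, 95% interval -2.26 to -0.14). Tmem119, a surface protein of resident microglia, fell after MCAO from 43.3, 44.1 and 42.1 CPM to 7.17, 24.5 and 4.55 CPM (edgeR adjusted p = 0.0473). Aif1, which encodes the microglial protein IBA1, rose after pontine infarction from 8.25, 7.67 and 5.82 CPM to 22.9, 23.1 and 54.3 CPM (edgeR adjusted p = 0.0194) and was at 28.9, 11.2 and 11.1 CPM after MCAO, where its test did not pass (edgeR adjusted p = 0.0591). Its difference was -0.96 ± 0.59 (95% interval -2.25 to 0.32). Without pontine infarction replicate 3 the differences were -0.59 for Csf1r and -0.43 for Aif1, and without MCAO replicate 1 it was -1.76 for Aif1.

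Of 17 complement genes, 11 rose in each model, beside 12.5% of all genes after MCAO and 3.21% after pontine infarction. The log2 difference was above 0 in 11 and below 0 in 6, whereas on the CPM scale it was above 0 in 5 and below 0 in 12. The log2 median of 0.45 became -0.60 without MCAO replicate 1, 0.29 without sham LN replicate 3 and 0.11 without pontine infarction replicate 2. At an unadjusted p under 0.05 were 4 members, C1qa, C1qb and C1qc among them, all below 0 (3.46% of all genes were). C1qa, a chain of the C1q complex made by microglia, was at 46.4, 39.7 and 39.5 CPM in sham LN and 48.7, 50.3 and 33.2 CPM after MCAO. In the pontine model it was at 39.4, 49.3 and 48.1 CPM in sham and 112, 89.0 and 287 CPM after infarction. The pontine groups were apart and the MCAO groups overlapped (difference -1.76 ± 0.50, 95% interval -2.86 to -0.66, edgeR adjusted p = 0.280). Pontine infarction replicate 3 was the highest library for C1qa, Csf1r and Aif1, and for the summed lymphocyte markers, at 120.5 CPM against 30.5 CPM in the next highest of all libraries, and the part of those cells in these values was not tested. Without that library the differences were -1.07 for C1qa and -1.07 for C1qb, and the median of resting microglia markers was -0.69 (-1.48 to -0.69 over 22 settings).

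Interferon-stimulated and antigen presentation genes had medians above 0, with overlap between the models. The interferon list had a median difference of 0.27 over 26 genes, and this median changed sign in 4 of 22 settings. In this list 14 rose after MCAO and 4 after pontine infarction (12.5% and 3.21% of all genes did). Its median log2 change was 1.71 after MCAO and 2.14 after pontine infarction, the reverse order of the median difference. On the CPM scale the difference was below 0 in 16 genes and above 0 in 10, and sham PN was higher than sham LN in 24. The antigen presentation list had a median difference of 1.06 over 19 genes, with 16 and 4 that rose and 3 at an unadjusted p under 0.05, all above 0 (7.28% of all genes were). By library the antigen presentation changes were 4.10, 1.11 and 3.12 after MCAO and 1.63, 1.16 and 2.94 after pontine infarction, so that the models overlapped. The median difference was 0.42 without MCAO replicate 1 and 0.63 without pontine infarction replicate 2.

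**Figure D4:**
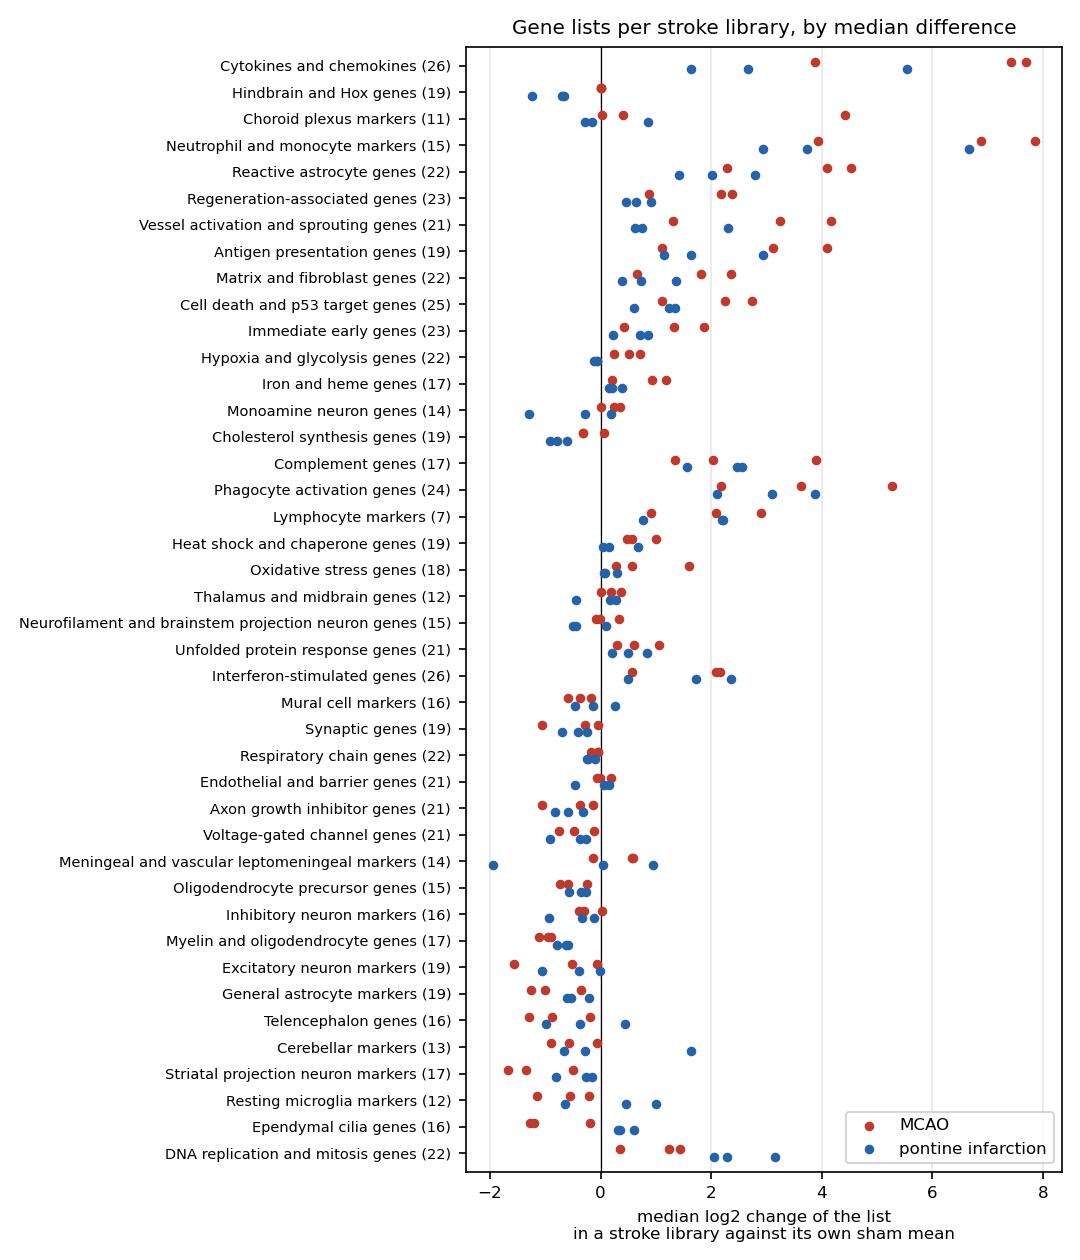
For each gene list of at least 7 tested members (their number in brackets) the points give the median log2 change of its members in each of the 3 MCAO libraries (red) and the 3 pontine libraries (blue) against the mean of their own shams, with lists ordered by median difference. Colours are apart for hypoxia and glycolysis, cholesterol synthesis, DNA replication and mitosis, myelin, ependymal cilia and hindbrain and Hox genes. They overlap for cytokines, complement and interferon-stimulated genes, among others.

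Reactive astrocyte genes had higher log2 changes after MCAO, and general astrocyte markers lower ones. Of 22 reactive astrocyte genes, 20 rose after MCAO and 11 after pontine infarction (12.5% and 3.21% of all genes did). The difference was above 0 in 21, with a median of 1.49, or 2.50 without pontine infarction replicate 1. By library the median change was 4.54, 2.29 and 4.10 after MCAO and 2.80, 1.42 and 2.02 after pontine infarction, so that the models overlapped. The shams differed as well, with sham PN higher in 20 of 22 and a median level in sham LN relative to sham PN of -1.04 on the log2 scale. Summed levels overlapped after the strokes, at 4950 to 10950 CPM after MCAO and 4776 to 9013 CPM after pontine infarction. An unadjusted p under 0.05 was reached by 11 members, 10 above 0 (7.28% of all genes were) and 1, Clcf1, below 0 (3.46% of all genes were, log2 difference of Clcf1 -3.39). Gfap, the intermediate filament of astrocytes, was at 507, 429 and 366 CPM in sham LN and 3433, 3843 and 3505 CPM after MCAO. In sham PN it was at 1514, 1422 and 1623 CPM, and after pontine infarction at 5733, 3762 and 6684 CPM. It rose in both models, from shams that differed, and the difference of 1.22 ± 0.29 on the log2 scale (95% interval 0.58 to 1.86, edgeR adjusted p = 0.261) corresponded to mean gains of 3159.7 CPM after MCAO and 3873 CPM after pontine infarction. Sphk1, which makes sphingosine 1-phosphate, was at 0.9747, 0.926 and 0.880 CPM in sham LN and 40.8, 8.14 and 91.6 CPM after MCAO, and at 6.10, 6.20 and 8.19 CPM in sham PN and 11.6, 6.57 and 9.72 CPM after pontine infarction. The MCAO groups were apart by a wide margin in replicate 1 and the unnumbered library and a smaller one in replicate 2, and the pontine groups overlapped (difference 5.21 ± 0.90, edgeR adjusted p = 0.148). Serpina3n, a protease inhibitor used as a marker of reactive astrocytes, was at 1623, 20.2 and 53.8 CPM after MCAO and 172, 5.08 and 6.69 CPM after pontine infarction, with shams at or below 0.989 CPM, and a single library in each model carried most of it (difference 6.73 ± 3.73, 95% interval -1.43 to 14.89).

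Among 19 general astrocyte markers the difference was below 0 in 17, with a median of -0.39 that became -0.97 without MCAO replicate 2. In this list 10 fell after MCAO (6.07% of all genes fell), while 1 rose and 1 fell after pontine infarction (0.87% of all genes fell). Gja1, connexin 43, which forms the gap junctions between astrocytes, was at 455, 382 and 468 CPM in sham LN and 181, 249 and 162 CPM after MCAO, and at 475, 472 and 420.1 CPM in sham PN and 409.8, 499 and 366 CPM after pontine infarction. The shams were alike, all MCAO libraries were lower and the pontine groups overlapped (difference -1.04 ± 0.25, 95% interval -1.59 to -0.49, edgeR adjusted p = 0.261). Mlc1, a membrane protein of astrocyte end-feet, had the same pattern, with a log2 change of -0.69 ± 0.17 after MCAO (edgeR adjusted p = 0.0176), 0.19 ± 0.17 after pontine infarction (edgeR adjusted p = 0.527) and a difference of -0.88 ± 0.23.

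Genes of DNA replication and mitosis gave the lowest list median, with higher log2 changes after pontine infarction. Of 22 genes tested, 19 rose after pontine infarction and 7 after MCAO (3.21% and 12.5% of all genes did), and the median log2 change was 2.62 against 1.05. The difference was below 0 in 21 of 22, with a median of -1.64, and 11 members had an unadjusted p under 0.05, all below 0 (3.46% of all genes were). By library the median change was 2.06, 2.29 and 3.16 after pontine infarction and 1.43, 1.23 and 0.36 after MCAO, with no overlap. Across 22 settings the median ran from -2.01 to -1.07. The level in sham LN relative to sham PN had a median of 0.04 on the log2 scale, and ran from -1.10 to 1.32, with 12 members higher in sham LN and 10 higher in sham PN. Mki67, Ube2c and Plk1, described next, were among those higher in sham LN.

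Mki67, the classical marker of cycling cells, was at 1.25, 2.003 and 1.26 CPM in sham PN and 14.001, 24.4 and 22.7 CPM after pontine infarction. In sham LN it was at 1.98, 1.59 and 5.32 CPM and after MCAO at 7.22, 7.75 and 3.48 CPM. All 3 pontine libraries were above the highest MCAO library, and 1 sham LN library lay within the MCAO range (difference -2.70 ± 0.66, 95% interval -4.14 to -1.26, edgeR adjusted p = 0.261). Ube2c, which hands ubiquitin to the anaphase-promoting complex, was at 5.02, 5.12 and 14.4 CPM after pontine infarction and 2.50, 0.790 and 0.774 CPM after MCAO, from sham means of 0.367 and 0.648 CPM (difference -3.41 ± 0.83, 95% interval -5.22 to -1.59). Plk1, a kinase of mitosis, was at 5.40, 7.204 and 16.6 CPM after pontine infarction and 3.90, 1.92 and 2.42 CPM after MCAO, from sham means of 1.35 and 1.97 CPM (difference -2.38 ± 0.63, 95% interval -3.75 to -1.01). Both rose after pontine infarction, with edgeR adjusted p of 0.00747 for Ube2c and 0.0108 for Plk1, and neither passed after MCAO.

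Promoters of cell cycle genes are known for the CCAAT box, which the factor NF-Y binds. RefSeq promoter windows (GRCr8, the 250 bases before the start) were matched for 17 of the 22 genes, and 13 of these, 76.5%, hold CCAAT on either strand, compared with 34.0% of all 33469 windows. TTTGAA, the core of the element that represses such genes in resting cells, is in 6 of the 17 on either strand, 35.3% against 16.2%. A match is a description of the sequence. The windows of Mki67 (chr1:199952594-199952843, minus strand, 4 matches) and Plk1 (chr1:186147408-186147657, plus strand, 1 match) are shown as the genes described above, with CCAAT or its reverse complement ATTGG in capitals.
Mki67 promoter: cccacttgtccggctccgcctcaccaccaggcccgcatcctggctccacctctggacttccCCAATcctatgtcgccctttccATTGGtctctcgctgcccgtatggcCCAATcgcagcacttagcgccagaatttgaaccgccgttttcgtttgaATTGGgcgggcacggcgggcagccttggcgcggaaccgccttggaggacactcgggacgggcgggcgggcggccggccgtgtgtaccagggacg
Plk1 promoter: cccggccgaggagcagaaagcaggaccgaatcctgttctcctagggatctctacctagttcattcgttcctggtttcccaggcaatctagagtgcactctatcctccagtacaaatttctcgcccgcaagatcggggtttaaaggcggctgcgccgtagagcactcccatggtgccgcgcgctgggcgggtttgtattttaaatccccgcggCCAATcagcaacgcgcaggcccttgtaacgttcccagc

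Cholesterol synthesis genes had a difference above 0 in all 19 genes tested, with the lower log2 changes after pontine infarction. Of the 19, 11 fell after pontine infarction (0.87% of all genes fell) and 3 after MCAO (6.07% of all genes fell), with median log2 changes of -0.76 and -0.12. The median difference was 0.58, from 0.39 to 0.72 over 22 settings, and 13 of 19 had an unadjusted p under 0.05, all above 0 (7.28% of all genes were). By library the median change was -0.79, -0.60 and -0.91 after pontine infarction and -0.32, -0.32 and 0.06 after MCAO, with no overlap. The shams differed as well: the median level in sham LN relative to sham PN was -0.86 on the log2 scale, and after the strokes MCAO relative to pontine infarction was -0.28. The difference thus went with higher levels in sham PN.

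Lss, lanosterol synthase, which forms the sterol rings, was at 91.8, 84.0 and 122 CPM in sham PN and 36.0, 29.0 and 43.0 CPM after pontine infarction. In sham LN it was at 46.3, 39.95 and 38.9 CPM and after MCAO at 38.3, 32.5 and 44.4 CPM. Sham PN stood apart and the other 3 groups overlapped. Lss fell after pontine infarction (log2 change -1.46 ± 0.19, edgeR adjusted p = 0.00537), its change after MCAO was -0.12 ± 0.19 (edgeR adjusted p = 0.678), and the difference was 1.34 ± 0.27 (95% interval 0.75 to 1.93, edgeR adjusted p = 0.213). Fdps, farnesyl diphosphate synthase, fell after pontine infarction from 228 ± 33.2 to 141 ± 8.59 CPM (SD, n = 3, edgeR adjusted p = 0.0152) and was at 112 ± 7.72 and 104 ± 4.13 CPM in sham LN and after MCAO (difference 0.59 ± 0.18, 95% interval 0.20 to 0.98).

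These genes are targets of the factor SREBP2, which works together with NF-Y at CCAAT boxes. RefSeq windows were matched for 12 of the 19 genes, and 10 of these, 83.3%, hold CCAAT on either strand. The sterol element written as TCACNCCAC is in 0 of the 12 on either strand, and in 0.974% of all windows. The windows of Lss (chr20:12118231-12118480, minus strand, 1 match) and Fdps (chr2:176804817-176805066, minus strand, 2 matches) are shown because both genes fell after pontine infarction, with CCAAT or ATTGG in capitals.
Lss promoter: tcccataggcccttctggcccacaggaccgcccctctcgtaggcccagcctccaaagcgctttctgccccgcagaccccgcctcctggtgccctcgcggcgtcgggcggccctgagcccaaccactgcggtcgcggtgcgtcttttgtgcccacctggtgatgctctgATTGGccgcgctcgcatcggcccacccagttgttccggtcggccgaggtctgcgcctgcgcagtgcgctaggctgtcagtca
Fdps promoter: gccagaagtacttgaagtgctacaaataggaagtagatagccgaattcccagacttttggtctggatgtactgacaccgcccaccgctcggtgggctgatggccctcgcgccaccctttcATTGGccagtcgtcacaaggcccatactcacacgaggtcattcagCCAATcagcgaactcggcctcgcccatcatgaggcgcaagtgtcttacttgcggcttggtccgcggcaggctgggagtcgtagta

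Myelin genes, which build the most cholesterol-rich membrane of the brain, fell in part in both models. Of 17 genes, 11 fell after MCAO (6.07% of all genes did) and 4 after pontine infarction (0.87% of all genes did), and the median difference was -0.29, with 14 below 0. Sham levels differed by a median of -1.17 on the log2 scale, sham PN being higher. On the CPM scale the difference lay above 0 in 16 of 17, the opposite of most log2 values. Mbp, myelin basic protein, was at 15035, 10842 and 10149 CPM in sham LN and 8190.1, 5166 and 8328 CPM after MCAO, and at 30732, 30436 and 38989 CPM in sham PN and 20990.1, 19180.2 and 21949 CPM after pontine infarction. Each stroke group was below its shams, and the difference was -0.04 ± 0.34 with a 95% interval of -0.78 to 0.69, within a 2-fold change in either direction. Neither Mbp change passed, with edgeR adjusted p of 0.0528 after MCAO and 0.126 after pontine infarction. Oligodendrocyte precursor genes had a median difference of -0.01 over 15 genes, and -0.48 without MCAO replicate 2.

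Hypoxia and glycolysis genes had a difference above 0 in all 22 genes tested. The median log2 change was 0.55 after MCAO and -0.06 after pontine infarction, and 11 rose after MCAO and 2 after pontine infarction (12.5% and 3.21% of all genes did). The median difference was 0.76 (0.37 to 0.82 over 22 settings), and 15 of 22 had an unadjusted p under 0.05, all above 0 (7.28% of all genes were). By library the median change was 0.72, 0.24 and 0.52 after MCAO and -0.07, -0.12 and -0.06 after pontine infarction, with no overlap and with MCAO replicate 2 the lowest of its group. The level in sham LN relative to sham PN had a median of -0.15 on the log2 scale and ran from -1.02 to 1.15. Without MCAO replicate 1 the median difference was 0.37.

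Vegfa, the growth factor that low oxygen induces, was at 86.4, 78.2 and 89.4 CPM in sham LN and 233, 90.2 and 119 CPM after MCAO, and at 87.5, 69.4 and 82.1 CPM in sham PN and 52.4, 63.5 and 45.1 CPM after pontine infarction. All MCAO libraries were above their shams and all pontine libraries below theirs, although neither change passed and the difference was 0.70 without MCAO replicate 1 (all libraries 1.37 ± 0.40, 95% interval 0.49 to 2.25, edgeR adjusted p = 0.290). Pkm, pyruvate kinase, the last step of glycolysis, rose after MCAO from 889, 963 and 858 to 1573, 1049 and 1504 CPM (edgeR adjusted p = 0.0305) and was at 953, 1138 and 1252 CPM in sham PN and 977, 940.2 and 981 CPM after pontine infarction (difference 0.81 ± 0.24, 95% interval 0.29 to 1.33). Slc2a1, the glucose transporter of the blood-brain barrier, rose after MCAO from 191 ± 7.51 to 539 ± 268 CPM (SD, n = 3, edgeR adjusted p = 0.0164), and was at 247 ± 49.3 CPM in sham PN and 321 ± 128 CPM after pontine infarction (difference 1.13 ± 0.50, or 0.50 without MCAO replicate 1). Respiratory chain genes, by comparison, had a median difference of 0.11 over 22 genes with 0 called in either response.

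**Figure D5:**
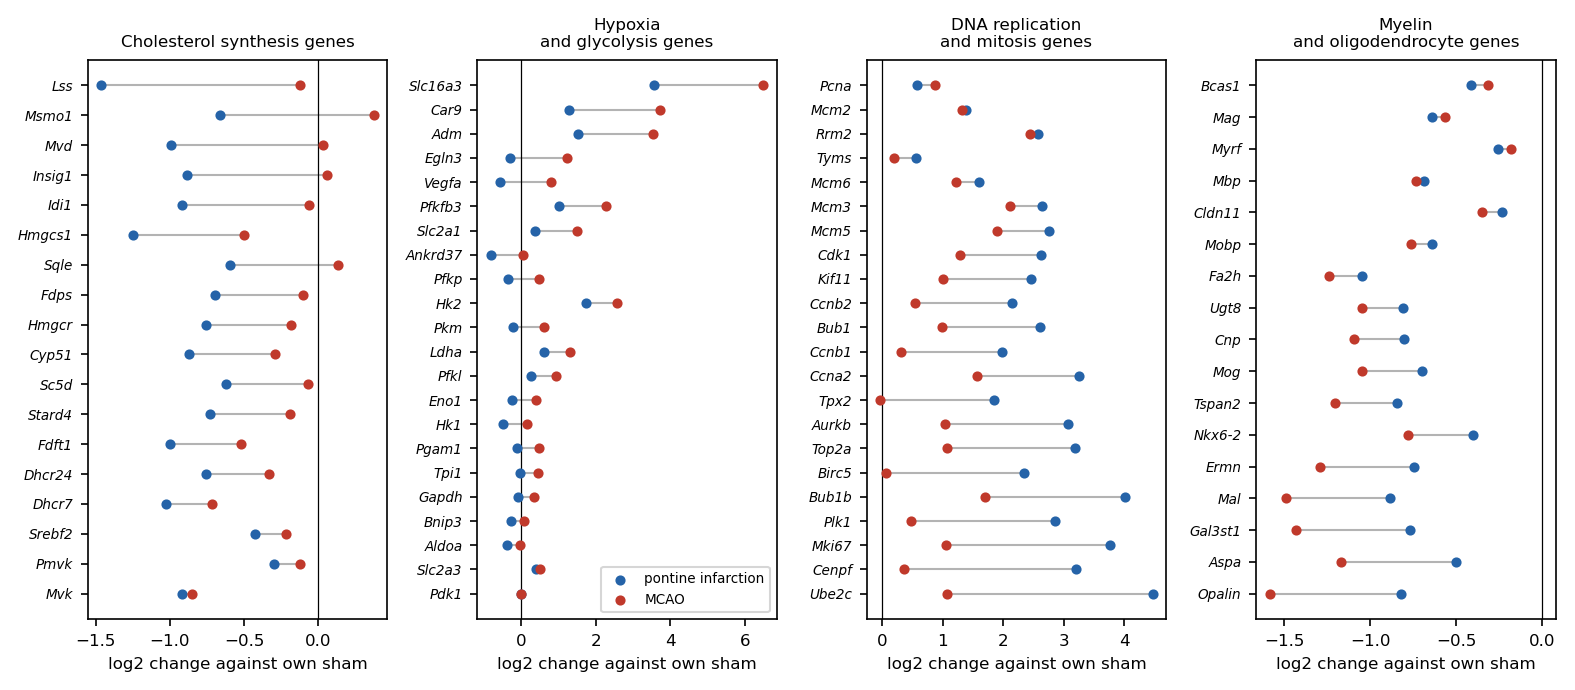
Log2 change of the tested members of 4 lists (18 of the 19 cholesterol synthesis genes are drawn) after MCAO (red) and after pontine infarction (blue) against its own sham, joined by a line and ordered by the difference. Red lies to the right for the 18 cholesterol synthesis genes drawn and all 22 hypoxia and glycolysis genes, to the left for 21 of 22 replication and mitosis genes and to the left for 14 of 17 myelin genes.

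Stress and early response genes mostly had differences above 0, with overlap between the models by library. The median change in MCAO replicate 2 lay below that in pontine infarction replicate 1 for cell death (1.11 against 1.35) and immediate early genes (0.43 against 0.86). The same held for heat shock (0.48 against 0.67) and unfolded protein response genes (0.30 against 0.84). Of 25 cell death and p53 target genes, 18 rose after MCAO and 7 after pontine infarction (12.5% and 3.21% of all genes did), the median difference was 0.94, and 9 had an unadjusted p under 0.05, all above 0 (7.28% of all genes were). Without MCAO replicate 1 this median was 0.35. Ccng1, a direct p53 target, rose after MCAO from 186, 186 and 162 to 481, 285 and 438 CPM (edgeR adjusted p = 0.00687), and had 96.3, 76.3 and 55.7 CPM in sham PN and 104, 88.7 and 79.6 CPM after pontine infarction (difference 0.92 ± 0.32, 95% interval 0.23 to 1.61). Of 23 immediate early genes 12 rose after MCAO and 3 after pontine infarction, with a median difference of 0.91. Fos was at 54.5, 28.03 and 290.0 CPM after MCAO and 44.8, 20.96 and 22.1 CPM after pontine infarction, against at most 18.2 CPM in the shams. Fos rose after MCAO (edgeR adjusted p = 0.0154) and the unnumbered library was by far the highest, and the interval of the difference began near 0 (2.08 ± 0.93, 95% interval 0.05 to 4.10). Without that library the Fos difference was 0.49, and 0.38 with the replicate block, which also leaves it out. Of 19 heat shock genes 9 rose after MCAO and 3 after pontine infarction (median difference 0.44), and of 21 unfolded protein response genes 11 and 6 rose (median difference 0.30). Without MCAO replicate 1 the median was 0.58 for immediate early and 0.08 for unfolded protein response genes, and without the unnumbered library 0.45 for immediate early, 0.27 for heat shock and 0.10 for unfolded protein response genes.

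Atf4, the transcription factor of the integrated stress response, had pontine groups at one level. It was at 136, 138 and 129 CPM in sham LN and 324, 199 and 324 CPM after MCAO, and at 175, 163 and 176 CPM in sham PN and 191, 141 and 182 CPM after pontine infarction. It rose after MCAO (edgeR adjusted p = 0.00444), the pontine groups overlapped with a log2 change of 0.00 ± 0.18, and the difference was 1.06 ± 0.26 (95% interval 0.50 to 1.63, edgeR adjusted p = 0.261). Srxn1, sulfiredoxin, which repairs oxidised peroxiredoxins, was at 53.2, 48.3 and 58.8 CPM in sham LN and 328, 78.5 and 489 CPM after MCAO. It was at 47.3, 55.7 and 59.5 CPM in sham PN and 57.4, 56.6 and 61.6 CPM after pontine infarction, a log2 change of 0.11 ± 0.44 (difference 2.37 ± 0.63, 95% interval 0.99 to 3.76, edgeR adjusted p = 0.269). Hmox1, heme oxygenase 1, rose in both models, to 642, 98.9 and 254 CPM after MCAO and 79.3, 50.9 and 186 CPM after pontine infarction from sham means of 5.80 and 11.2 CPM. The stroke ranges overlapped, and the difference was 2.61 ± 0.83 (95% interval 0.80 to 4.42). The oxidative stress list as a whole had a median difference of 0.37 over 18 genes, and the iron and heme list 0.67 over 17. Without MCAO replicate 1 these were -0.16 and 0.00, and the difference of Hmox1 was 1.51.

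Differences were above 0 in 15 of 22 matrix and fibroblast genes, 17 of 21 vessel activation genes and 19 of 23 regeneration-associated genes. By library the models overlapped in each of these lists, since the median change in MCAO replicate 2 lay below that in pontine infarction replicate 1. It was 0.66 against 0.73 for matrix, 1.31 against 2.30 for vessel activation and 0.88 against 0.91 for regeneration-associated genes. Of 22 matrix and fibroblast genes, 12 rose after MCAO and 2 after pontine infarction (12.5% and 3.21% of all genes did). Their median difference was 1.05, with 7 at an unadjusted p under 0.05, all above 0 (7.28% of all genes were). Sham PN was higher than sham LN in 19 of the 22, with a median level in sham LN relative to sham PN of -1.10 on the log2 scale. Col6a3, a chain of collagen VI, rose after MCAO from 3.90, 8.08 and 3.63 to 51.2, 19.9 and 88.4 CPM (edgeR adjusted p = 0.00265), and was at 19.2, 20.3 and 21.6 CPM in sham PN and 16.9, 18.1 and 31.8 CPM after pontine infarction (difference 3.23 ± 0.67, 95% interval 1.76 to 4.70, edgeR adjusted p = 0.213). Sham PN was thus about as high as MCAO replicate 2. Of 21 vessel activation and sprouting genes, 15 and 5 rose (median difference 1.12). Thbd, thrombomodulin, an anticoagulant receptor of endothelium, was at 42.0, 9.67 and 37.2 CPM after MCAO and 16.9, 12.6 and 19.4 CPM after pontine infarction, from sham means of 3.99 and 10.499 CPM (difference 2.26 ± 0.65, 95% interval 0.85 to 3.67). Cldn5, the main tight junction claudin of brain vessels, was at 156, 138 and 122 CPM in sham LN and 74.6, 122 and 50.8 CPM after MCAO, and at 147, 147 and 191 CPM in sham PN and 93.4, 141 and 198 CPM after pontine infarction. The MCAO libraries were at or below the lowest sham and the pontine groups overlapped, and neither change nor the difference passed (-0.59 ± 0.44, 95% interval -1.55 to 0.37). Without MCAO replicate 1 the median difference was 0.43 for matrix and fibroblast genes and 0.68 for vessel activation genes, and the latter was 0.55 without the unnumbered MCAO library and 1.83 without pontine infarction replicate 1. Endothelial and barrier genes had a median difference of 0.10 over 21 genes.

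Of 23 regeneration-associated genes, which injured neurons and Schwann cells switch on after axon damage, 14 rose after MCAO and 4 after pontine infarction (12.5% and 3.21% of all genes did). The median difference was 1.12, or 0.73 without MCAO replicate 1, and 10 had an unadjusted p under 0.05, all above 0 (7.28% of all genes were). Arg1, arginase 1, was at 3.40, 2.59 and 2.75 CPM in sham LN and 173, 13.1 and 38.6 CPM after MCAO, and at 8.68, 10.47 and 8.37 CPM in sham PN and 20.3, 8.87 and 10.54 CPM after pontine infarction (difference 4.16 ± 0.998, 95% interval 1.97 to 6.34, edgeR adjusted p = 0.261). MCAO replicate 1 was the highest, and the difference without it was 2.44, and replicate 2 was within the range of the pontine libraries. Flnc, filamin C, an actin crosslinker, rose after MCAO from 19.9, 24.2 and 19.9 to 128, 80.6 and 270.4 CPM (edgeR adjusted p = 0.00166) and was at 31.3, 46.0 and 51.7 CPM in sham PN and 79.1, 65.3 and 82.2 CPM after pontine infarction (difference 2.09 ± 0.50). Sprr1a, a cornified envelope protein that neurons make after axon injury, was at 93.2, 3.45 and 142 CPM after MCAO and 0.558, 1.45 and 0.972 CPM after pontine infarction, with all shams below 1 CPM (difference 5.48 ± 1.57, 95% interval 2.06 to 8.91). Gap43, a growth cone protein of the same list, had a difference of -0.25 ± 0.33 (95% interval -0.98 to 0.48).

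Among the neuronal lists the striatal one had the median farthest from 0. Markers of striatal projection neurons, the output cells of the caudate and putamen, were below 0 in 16 of 17, with a median difference of -0.79. It became -1.33 without MCAO replicate 2, where 7 members were called lower, beside 603 of all 17529 genes tested in that setting. In this list 10 fell after MCAO (6.07% of all genes did) and 0 were called after pontine infarction (4.08% of all genes were). By library the median change was -1.68, -0.50 and -1.35 after MCAO and -0.16, -0.27 and -0.81 after pontine infarction, so that the models overlapped. Sham LN replicate 2 was itself at -0.64 against the mean of its group. Summed levels were 848 to 893 CPM in sham PN against 6543 to 12678 CPM in sham LN. After MCAO they were 4113 to 6740 CPM, which overlapped the lowest sham LN library. Adora2a, an adenosine receptor dense in these neurons, was at 464, 191 and 429 CPM in sham LN and 117, 197 and 95.7 CPM after MCAO, and at 5.54, 6.23 and 7.87 CPM in sham PN and 16.4, 5.33 and 9.98 CPM after pontine infarction. Sham LN replicate 2 lay within the MCAO range (difference -2.08 ± 0.60, 95% interval -3.40 to -0.77). Foxp1, a transcription factor of these neurons, fell after MCAO from 310.5, 223 and 309 to 145, 180.5 and 129 CPM (edgeR adjusted p = 0.00761), with 30.1, 30.8 and 26.8 CPM in sham PN and 36.9, 30.5 and 27.3 CPM after pontine infarction (difference -1.001 ± 0.25, edgeR adjusted p = 0.263).

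The median difference was -0.32 for excitatory neuron markers, -0.19 for inhibitory ones, 0.13 for synaptic genes and 0.03 for voltage-gated channel genes. The last 3 of these medians changed sign in 6 to 9 of 22 settings. Snap25, a protein of the vesicle fusion complex, was at 1293, 1547 and 1291 CPM in sham LN and 901, 1234 and 1259 CPM after MCAO, and at 1181, 1139 and 904 CPM in sham PN and 828, 789.6 and 469 CPM after pontine infarction. Stroke libraries were below their shams in both models, neither change passed, and the difference was 0.34 ± 0.31 (95% interval -0.34 to 1.03). Slc17a7, which loads glutamate into vesicles in cortical neurons, was at 802, 1612 and 953 CPM in sham LN and 447, 1397 and 1013 CPM after MCAO, and at 231, 317 and 441 CPM in sham PN and 20.2, 52.4 and 323 CPM after pontine infarction. Both models overlapped with their shams, and the interval of the difference was wide (1.09 ± 1.09, 95% interval -1.31 to 3.48). Nefh, the heavy neurofilament of large axons, went from 1006 ± 121 to 509 ± 72.6 CPM (SD, n = 3) in the pontine model and from 153 ± 45.3 to 183 ± 52.7 CPM in the MCAO model (difference 1.23 ± 0.35, 95% interval 0.47 to 2.001).

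Genes that mark a region or another tissue moved with some of these differences. Hindbrain and Hox genes had a median difference of 2.25, or 2.58 with the 11 of 19 genes that have a group at 0 counts set to the floor, and their sum in the MCAO libraries was 28.3, 11.8 and 84.3 CPM. In this list 1 of 19 genes was higher in sham LN than in sham PN, by 6.29 on the log2 scale. The immediate early list has the same highest value in the shams and the same lowest difference, -2.82. The unnumbered MCAO library also had the highest immediate early sum, 3526 CPM. The sums are thus no measure of hindbrain tissue alone, and the part of that gene in them was not tested. Slc6a5, the glycine transporter of brainstem and spinal neurons, was at 2.05, 2.19 and 3.02 CPM in sham LN and 17.1, 3.504 and 21.6 CPM after MCAO, and at 109.7, 66.4 and 92.1 CPM in sham PN and 61.7, 18.6 and 61.9 CPM after pontine infarction (difference 3.46 ± 0.82, 95% interval 1.67 to 5.25). MCAO replicate 1 and the unnumbered library thus held several-fold more of this gene than their shams and replicate 2 was close to them, and the part of such tissue in the other differences was not tested. Choroid plexus markers were above 0 in all 11, with a median of 2.21 that became -0.66 without MCAO replicate 1. Ttr, transthyretin of the choroid plexus, was at 1019, 0.691 and 5.51 CPM in the MCAO libraries, 3.06, 0.519 and 0.459 CPM in sham LN, 2.32, 16.9 and 6.29 CPM in sham PN and 1.67, 2.08 and 2.28 CPM after pontine infarction, so that MCAO replicate 1 alone was high. Ependymal cilia genes were below 0 in 15 of 16, with a median of -1.35 that became -0.63 without sham LN replicate 3, while the sham LN libraries themselves spread over 0.31, -1.25 and 0.85 around their mean. Hydin, a protein of motile cilia, was at 17.6, 3.97 and 20.1 CPM in sham LN and 2.26, 2.47 and 1.26 CPM after MCAO, and at 15.6, 19.01 and 14.5 CPM in sham PN and 12.6, 24.9 and 13.5 CPM after pontine infarction (difference -2.86 ± 0.71). Cerebellar markers summed to 388 to 1678 CPM in the pontine libraries, where replicate 3 was the highest. They summed to 498 to 584 CPM in sham PN but to 1402 to 1475 CPM in sham LN, so that a high sum was not particular to that library. Their median difference of -0.73 became 0.13 without pontine infarction replicate 3. Red cell genes summed to 11.3 to 98.1 CPM in sham LN. The part of these tissues in the differences was not tested. The median difference was -0.48 for telencephalon genes, 0.35 for thalamus and midbrain genes, 0.61 for monoamine neuron genes, 0.34 for neurofilament and brainstem projection neuron genes, 0.08 for axon growth inhibitors, 0.13 for mural cell markers and -0.01 for meningeal markers. The axon growth inhibitor, mural and meningeal medians changed sign in 7, 7 and 9 of 22 settings. Meningeal markers summed to 417, 1250 and 2763.5 CPM after pontine infarction and to 1285 to 1593 CPM in sham PN. Their sums were 283 to 470 CPM after MCAO and 302 to 575 CPM in sham LN.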

How the data were processed

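Gene counts were deposited as one table of raw whole-number counts for 37209 symbols in 12 libraries. The submitters' processing notes name HISAT2 and the rat genome Rnor_6.0. How reads were counted, on which annotation and with which strand setting is not given in the sources used here, so that overlapping and antisense genes cannot be told apart. Per the labels' protocols, total RNA with an integrity number above 8.0 was used. Of the columns, 11 match a sample title, and 1 MCAO column matches the group alone. Counts were analysed with edgeR 4.0.16 in R 4.3.3: filterByExpr (minimum count 10, minimum total 15) kept 17008 genes, the others holding 0.0453% of counts. One quasi-likelihood fit with TMM scaling on all 12 libraries gave a common biological coefficient of variation of 0.302. The contrasts were the difference, MCAO with sham LN, and pontine infarction with sham PN, two-sided, with Benjamini-Hochberg adjustment over all genes tested at 0.05. SE is the absolute log2 value over the square root of F. CPM are TMM-normalised. Libraries' own log2 values used a prior count of 2.

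The members and the gene lists were chosen with earlier results of these data known. Since fewer than 10 genes passed, the rule named the 10 of smallest p, besides 13 fixed genes and, as examples, list members of smallest p. Other members named were chosen after their values were seen. Alternatives were run with DESeq2 1.42.0 and limma 3.58.1, with other scalings and filters, a 2-fold minimum, a replicate block and each library left out, and scripts were tested on simulated data. Deviations of same-numbered libraries correlated at 0.14, 0.27 and 0.27 in the pontine model, and at 0.21 and 0.04 in the MCAO model. The numbers may therefore pair the pontine libraries. With the replicate block the pontine response called 101 genes and the difference 0. Values of some list members are not reported here.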

Additional observations from a re-analysis of the deposited data

How the results depend on the processing

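The count of genes called for the difference was 0 with DESeq2 size factors, both filters of 1 CPM, limma voom, a 2-fold minimum and the replicate block (967 genes at an unadjusted p under 0.05). It was 1 without a filter, 238 with DESeq2, 259 with limma voom and quality weights, and 0 to 970 when 1 library was left out, the highest without MCAO replicate 2. Without MCAO replicate 2 and pontine infarction replicate 3 together, a setting chosen after seeing the data, it was 1612 (559 higher and 1053 lower). The share of unadjusted calls above 0 was 40.2% without a filter and 37.0% without both libraries. The MCAO response (3163) called 126 genes with the replicate block, 7277 without both libraries and 1136 to 6170 with 1 library left out. The pontine response (694) called 1738 with DESeq2, 315 with limma voom, 101 with the replicate block and 6 to 1416 with 1 library left out, the lowest without sham PN replicate 3. The cause was not tested. The block used the 11 numbered libraries.

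Of 104 genes set by the rule (those of smallest p, the fixed genes and list members of smallest p), 5 changed the sign of their difference in some setting and 65 were called in some. Not all of the 104 are described above. Other genes named in the text, such as Il1rn, Tmem119, Plk1, Fdps and Nefh, are not in this count. With libraries left out Cd68 ranged from -1.32 to 1.53, Mbp from -0.32 to 0.15, Snap25 from -0.12 to 0.49, Neurod1 from -6.81 to 0.34 and Ddx3y, which had at most 24 counts in a library, from -1.28 to 1.83. Cd68 was also at -0.25 with limma voom and -0.26 with the replicate block. Of 43 lists, 19 had a median that changed sign in some setting. Counts limit the 180 genes with a group at 0, and intervals cover the spread between these samples alone.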

Other observations

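Several neuropeptide and secretory granule genes were among the 124 genes called for the difference in DESeq2, in limma voom with quality weights and in edgeR without MCAO replicate 2. They belong to no list of the report and were picked after their values were seen. Trh, thyrotropin-releasing hormone, had log2 changes of 4.12 after MCAO and 1.70 after pontine infarction, a difference of 2.42 (95% interval 1.10 to 3.73). Calca, which encodes calcitonin gene-related peptide, had changes of 5.94 and 0.96 (difference 4.98, 95% interval 2.39 to 7.57). Chgb, a granin of secretory granules, had changes of 0.87 and -0.59 (difference 1.46, 95% interval 0.77 to 2.14), and Vgf, another granin-like protein, 1.59 and -0.46 (difference 2.05, 95% interval 0.91 to 3.19). With edgeR and all 12 libraries their adjusted p were 0.263, 0.261, 0.225 and 0.269, so that none passed.

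Scd1 and Plin2, also picked from the 124 after their values were seen, act in lipid storage and synthesis. Scd1, the desaturase that makes monounsaturated fatty acids, fell after pontine infarction (log2 change -1.40) and had a change of -0.11 after MCAO (difference 1.28, 95% interval 0.72 to 1.84), close to the values of Lss. Plin2, which coats lipid droplets, rose in both models, by 4.74 after MCAO and 2.35 after pontine infarction (difference 2.40, 95% interval 0.92 to 3.88).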
